A study of Mus musculus with 20 samples.

Results

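Expression at high and low glucose was compared after 24 h of exposure to human amylin in MIN6, an insulinoma-derived line from mouse that secretes insulin. Amylin is the peptide that beta cells release together with insulin, and the human form can aggregate into amyloid. The comparison used 6 of the 20 arrays of the study. They were 3 arrays of cells kept at 22.7 mM glucose with 1, 10 or 20 µM amylin for 24 h, set against 3 arrays of cells kept at 5.5 mM glucose with 1, 10 or 20 µM amylin for 24 h, matched on dose. All 6 arrays therefore carry the amylin treatment, and none of them shows glucose alone. The other 14 arrays were untreated cells (1 at each glucose level) and cells given the same 3 doses for 2 or 12 h. Each condition was arrayed once, the cells were a single line, and nothing in the labels describes separate cultures. The p-values below therefore measure only the spread between these arrays, and the number of arrays limits the precision.

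Beta cells sense glucose by metabolising it. The sugar enters through the transporter GLUT2 and is phosphorylated by glucokinase, and the ATP made from it closes potassium channels and triggers insulin release. Glucose also acts on transcription, in part through the factor ChREBP, whose target Txnip is a common marker of glucose exposure in islets. When amino acids are short or unfolded proteins gather in the endoplasmic reticulum (ER), kinases that phosphorylate the initiation factor eIF2 start the integrated stress response, in which the factor ATF4 induces genes of amino acid uptake and synthesis, and then the factor CHOP (Ddit3).

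The measured quantity is the log2 signal of a probe set after RMA normalization, with 1 probe set per gene. A difference below is a log2 difference, 22.7 minus 5.5 mM glucose, and an effect of 1 is a doubling of the signal. Of 12393 genes on the array, 7436 passed the filter on low signal and were tested. Differences were tested with limma in a fit over all 20 arrays that matched glucose levels within each amylin condition, with Benjamini-Hochberg adjustment over the whole set of 7436 genes and a threshold of 0.05.

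In that fit no gene passed at 24 h. Limma called 0 of 7436 genes (0% called), with a lowest adjusted p of 0.195. An unadjusted p under 0.05 was reached by 1496 genes, 1032 of them higher and 464 lower at 22.7 mM, where 371.8 were expected. Without the 10 µM pair, 0 genes were called and 471 had an unadjusted p under 0.05, and 331 genes were shared by both sets. The counts depended on the weighting of arrays, since limma called 476 genes (6.4%, 345 higher and 131 lower) once arrays were weighted by residual spread. Both arrays of a pair had the same weight in that fit. At 24 h it was 0.75, 0.32 and 2.45 for 1, 10 and 20 µM, so that the 20 µM pair counted most. Values below are differences that did not pass in the matched fit, except where another fit is named.

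The 10 µM pair stood apart. Its 5.5 mM array, 1 of 2 in the study for which no scanner description was used, correlated with the other arrays at 0.962 on average, whereas the remaining 5 arrays at 24 h were between 0.987 and 0.990. Its values were also compressed, with an SD over genes of 1.58 log2 units against 1.75 to 1.83 in those 5 arrays. Over the tested genes the differences had an SD of 0.24 in the 1 µM pair, 0.50 in the 10 µM pair and 0.27 in the 20 µM pair. Differences past 1 log2 unit numbered 16, 388 and 18 genes in the pairs of 1, 10 and 20 µM. The difference moved with the signal of a gene: among the fifth of genes with the highest signal in the 14 other arrays, the median difference was 0.06 at 1 µM, 0.31 at 10 µM and 0.11 at 20 µM. In the fifth with the lowest signal it was −0.0034, −0.43 and −0.14. Lists are therefore given with and without the 10 µM pair, as are genes whose difference moved by more than 1.5 times without it, and the part of this signal dependence in any gene's difference was not tested.

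RNA quality and chip handling also moved with glucose in some pairs. Signal from the 3′ end of actin exceeded that from its 5′ end, a gap that grows with loss of 5′ sequence, by 1.96, 1.19 and 1.36 at 22.7 mM and 0.987, 1.04 and 1.29 at 5.5 mM for 1, 10 and 20 µM. All 3 arrays at 22.7 mM were washed in steps of 30 and 35 °C and scanned on days 3, 4 and 4. At 5.5 mM the 1 µM array had the same wash and was scanned on day 4, while the 20 µM array was washed in steps of 25 and 30 °C and scanned on day 3. The 1 µM pair thus had the larger gap in actin signal and a shared wash, and the 20 µM pair had a small gap and different washes. Neither of these pairs shared its scan day.

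Genes of the integrated stress response formed the list with the lowest median. Of 21 members tested, 19 were lower at 22.7 mM, 12 of them at an unadjusted p under 0.05, and none passed adjustment. Of all 7436 genes 2812 were lower, 464 of them at an unadjusted p under 0.05. The list's median difference was −0.46, against 0.07 for all genes tested. By pair the list's median was −0.87 at 1 µM, −0.23 at 10 µM and −0.56 at 20 µM. Without the 10 µM pair it was −0.65 with 20 of 21 members lower, against 3114 of all 7436 genes. In 10 of 21 members all 3 arrays at 22.7 mM lay below all 3 arrays at 5.5 mM, which held for 6.41% of all genes tested, and in none did they lie above, which held for 14.6%. Without the 10 µM pair, 15 members were separated downward, against 16% of all genes. Among the 20 lowest of 7436 differences 7 belonged to this list, and 8 did so without the 10 µM pair.

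Ddit3 encodes CHOP, the factor that drives cell death when the response persists (chromosome 10, 127290793 to 127296291, GRCm38.p6). It had a log2 signal of 8.63, 8.32 and 8.40 at 22.7 mM with 1, 10 and 20 µM amylin, against 9.56, 9.41 and 9.24 at 5.5 mM. The groups did not overlap and the 3 pairs were close to each other. The mean difference over 3 pairs was −0.95 (SE 0.21, 1.94-fold lower), with a limma adjusted p of 0.195, and it was −0.88 without the 10 µM pair. Here and below the SE is limma's, from the fit over all 20 arrays, and is not the spread of the 3 pairs. Trib3 encodes a pseudokinase that CHOP and ATF4 induce (chromosome 2, 152337425 to 152344060). Its signal was 7.63, 7.41 and 7.31 at 22.7 mM and 9.35, 8.59 and 7.92 at 5.5 mM. All 3 arrays at 22.7 mM lay below those at 5.5 mM, where the values spread by more than 1 log2 unit between doses. The mean difference was −1.17 (SE 0.29, limma adjusted p = 0.195), and a weaker probe set of the gene gave −0.99.

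Slc7a3, a transporter of cationic amino acids on the X chromosome (101079146 to 101090452), had the largest difference of the list. Its signal was 7.74, 7.59 and 7.08 at 22.7 mM, against 9.12, 8.47 and 8.45 at 5.5 mM, without overlap. The mean difference was −1.21 (SE 0.31, 2.32-fold lower) and −1.38 without the 10 µM pair. Nupr1, a small stress-induced chromatin protein (chromosome 7, 126623246 to 126625470), was at 7.40, 7.14 and 7.13 at 22.7 mM and at 8.66, 8.32 and 8.31 at 5.5 mM. Its pairs gave −1.26, −1.17 and −1.18, so that the dose hardly moved the difference. Eif4ebp1, an inhibitor of cap-dependent translation, had signals of 8.97, 8.57 and 8.25 at 22.7 mM, against 10.13, 9.57 and 9.20 at 5.5 mM, and a mean difference of −1.04 (SE 0.31). In both groups its signal was lower at 20 µM than at 1 µM, and the groups did not overlap.

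**Figure D1:**
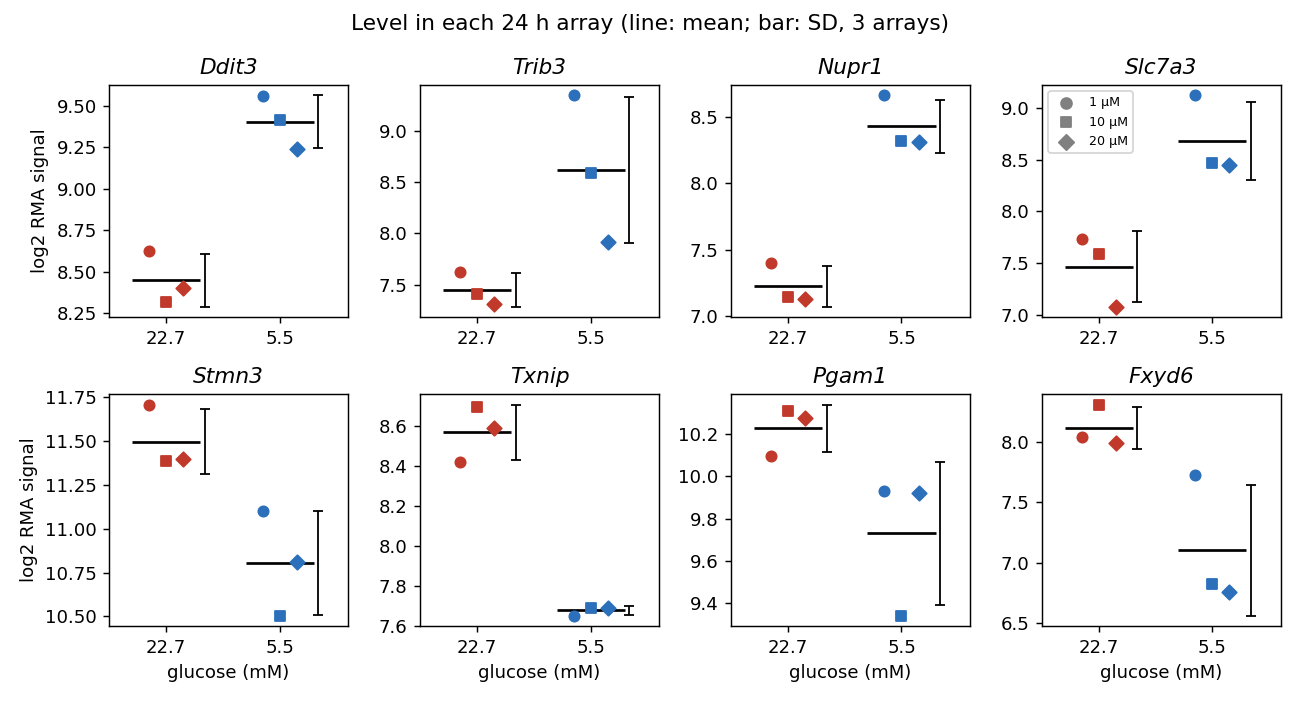
Log2 RMA signal (vertical axes, 1 scale per gene) of 8 genes in the 6 arrays at 24 h, with 22.7 mM glucose (red) left of 5.5 mM (blue) and the dose given by the symbol. Lines are means and bars SD over 3 arrays. Ddit3, Trib3, Nupr1 and Slc7a3 lay lower in every array at 22.7 mM, and Stmn3, Txnip, Pgam1 and Fxyd6 lay higher. The 5.5 mM array with 10 µM amylin was the lowest for Stmn3 and Pgam1.

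Slc7a3, Nupr1 and Eif4ebp1 were also the list members that limma called when the 6 arrays at 24 h were fitted alone with dose as a block (adjusted p = 0.0483, 0.0462 and 0.0483). That fit had 2 residual degrees of freedom and called 4 of 7436 genes in all (0.0538%), each lower, and the remaining gene was Angptl6, a secreted angiopoietin-like protein (−1.09, adjusted p = 0.0483), which was named after its values were seen. With array weights 12 of the 21 members were called, all lower, against 1.76% of all genes called lower in that fit.

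Atf4, the factor that heads the response, had a high and narrow signal. It measured 11.33, 11.35 and 10.97 at 22.7 mM, against 11.91, 11.64 and 11.69 at 5.5 mM, and the groups did not overlap (mean difference −0.53, SE 0.17). Atf5, a related factor, was at 9.55, 9.22 and 9.20 at 22.7 mM, against 10.56, 9.64 and 10.81 at 5.5 mM (−1.01, SE 0.37), also without overlap. Chac1, which degrades glutathione, was at 8.78, 8.35 and 8.06 at 22.7 mM and at 9.92, 8.68 and 8.99 at 5.5 mM. A single value overlapped, since the 1 µM array at 22.7 mM lay above the 10 µM array at 5.5 mM, and the mean difference was −0.80 (SE 0.22). Ddit4, an inhibitor of mTOR (−0.57), Ppp1r15a, the phosphatase subunit that ends eIF2 phosphorylation (−0.45), and Herpud1, of ER-associated degradation (−0.49), were lower in all 3 pairs without overlap. Second probe sets above the filter gave −1.63 for Nupr1, −0.76 for Eif4ebp1, −0.38 for Herpud1 and −0.20 for Atf4.

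Other members did not separate. Asns, asparagine synthetase, was lower by 0.98 and 0.48 in the pairs of 1 and 20 µM and higher by 0.08 in that of 10 µM. Its mean difference was −0.46, −0.73 without the 10 µM pair, and −0.20 in a second probe set. The genes of an amino acid exchanger, Slc3a2 (−0.19) and Slc7a5 (−0.09), the tRNA synthetase gene Cars (−0.42), Sesn2 (−0.17), an mTOR inhibitor, Cebpb (−0.09) and Vldlr (−0.07) had the same signs, lower at 1 and 20 µM and higher at 10 µM. Without the 10 µM pair the values of Slc3a2, Slc7a5, Cars, Sesn2, Cebpb and Vldlr were −0.34, −0.25, −0.77, −0.33, −0.31 and −0.35. Cebpg had a mean of −0.22, and the 2 members with a positive mean were Stc2 (0.06), a secreted glycoprotein, and Vegfa (0.16), a growth factor of vessels. Without the 10 µM pair Stc2 was at 0.18 and Vegfa at −0.11, and a second probe set of Vegfa gave −0.27 and one of Cebpg 0.03. When the arrays were scaled in other ways or the probe sets of a gene averaged, the list's median ranged from −0.35 to −0.55 and the members without overlap numbered 6 to 13, all lower. The values over all genes tested moved too. With arrays centred on their medians, quantile normalized again or probe sets averaged, 262, 593 and 573 genes were separated downward, against 477 without these changes. Upward the counts were 1596, 740 and 847, against 1082. The median of all genes was 0.17, 0.0065 and 0.03 in the same order, against 0.07.

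**Figure D2:**
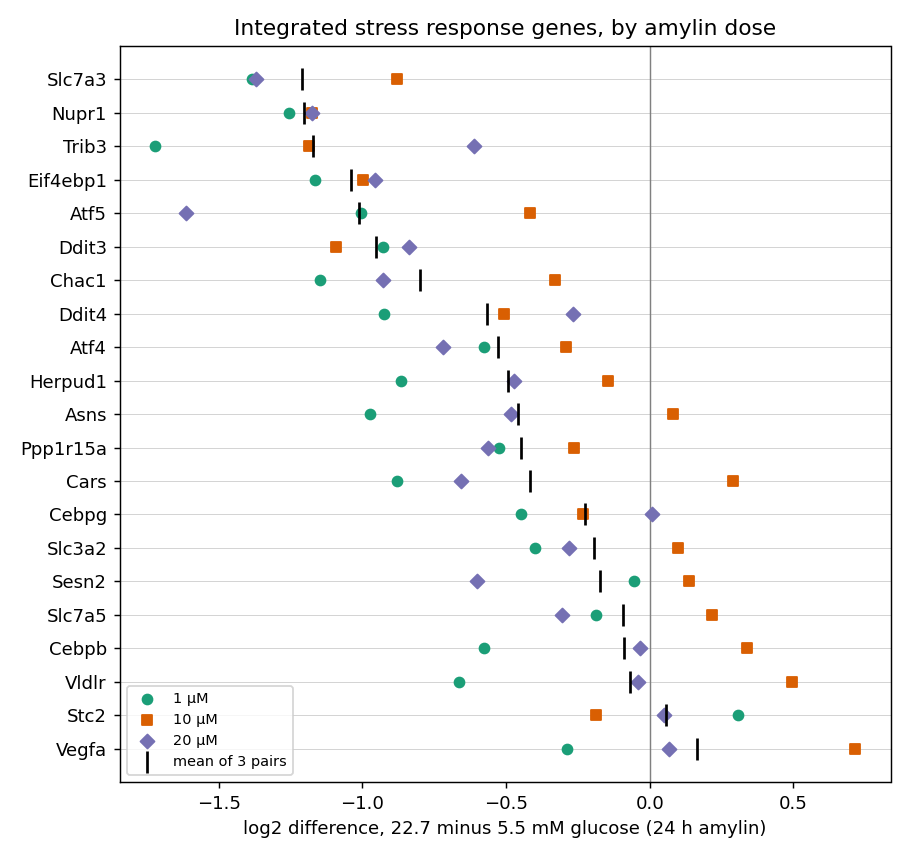
Log2 difference between 22.7 and 5.5 mM glucose (horizontal axis) of the 21 tested integrated stress response genes (vertical axis, in order of the mean) at 1, 10 and 20 µM amylin, with the mean of 3 pairs as a bar. The 10 genes with the most negative means lie left of 0 at every dose, and the 10 µM points lie right of 0 in several of the lower genes.

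The promoters of these genes were read for the core of the C/EBP-ATF response element, TTGCATCA, through which ATF4 acts on several of its targets. Of the 21 members 17 had an entry in the RefSeq promoter table (GRCm38.p6, 250 bases before to 50 after the start). The motif, searched on both strands, stood in 4 of 17 (23.5%), against 45 of 6081 tested genes with an entry (0.74%). These 4 are shown because 3 of them (Chac1, Herpud1 and Nupr1) belong to genes that were lower at 22.7 mM in all pairs and 1 (Vldlr) to a gene whose pairs differed in sign. Capitals mark the motif and 30 bases are given on either side, 5′ to 3′ on the gene's strand.
Chac1 (chr2:119351019-119351086, plus strand): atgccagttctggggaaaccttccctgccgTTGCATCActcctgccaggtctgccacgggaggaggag
Herpud1 (chr8:94386287-94386354, plus strand): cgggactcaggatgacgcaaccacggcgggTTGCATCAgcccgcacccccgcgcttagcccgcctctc
Nupr1 (chr7:126625543-126625610, minus strand): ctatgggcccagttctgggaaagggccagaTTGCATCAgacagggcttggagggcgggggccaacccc
Vldlr (chr19:27216790-27216857, plus strand): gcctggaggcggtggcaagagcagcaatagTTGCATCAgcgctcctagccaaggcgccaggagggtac
The motif ended 186, 105, 103 and 193 bases before the start of Chac1, Herpud1, Nupr1 and Vldlr. A match describes these letters and shows no binding. Among genes without overlap between the groups, the motif stood in 6 of 377 promoters of lower genes (1.59%), with Herpud1 and Nupr1 among them. In higher genes without overlap it stood in 4 of 929 promoters (0.431%). Other motifs were searched in the same way. CACGTG, an E-box, stood in 1 of the list's 17 promoters, in 7.16% of the lower, 12.8% of the higher and 12.2% of all. The ER stress element, CCAAT followed after 9 bases by CCACG, stood in 0 of 17, in 1.06%, 0% and 0.23%. TGACGTCA and the AP-1 site each stood in 1 of 17, against 3.73% and 4.36% of all.

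The enzymes that make serine, asparagine and one-carbon units, several of them known ATF4 targets, had a median of −0.29 over 11 tested genes. By pair it was −0.59 at 1 µM, 0.16 at 10 µM and −0.40 at 20 µM, so that the 10 µM pair had the opposite sign, and it was −0.49 without that pair. Psph, the last enzyme of serine synthesis, was at 8.03, 7.71 and 7.63 at 22.7 mM, against 9.06, 8.48 and 8.51 at 5.5 mM, without overlap (mean difference −0.90, SE 0.24). Phgdh, the first enzyme of that path, was at 10.07, 10.11 and 9.77 at 22.7 mM and at 10.88, 10.47 and 10.65 at 5.5 mM. It differed by −0.69 (SE 0.22), and its 3 other probe sets gave −0.88, −0.76 and −0.58. Mthfd2, of mitochondrial folate metabolism (−0.45), did not overlap either, whereas Psat1 (−0.49) and Shmt2 (−0.29) were lower at 1 and 20 µM and higher at 10 µM. Psat1 was at −0.85 and Shmt2 at −0.59 when that dose was left out. Cbs, which turns homocysteine into cystathionine, ran the other way (0.37), as did Mthfd1 (0.21).

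The neutral amino acid transporter gene Slc1a4, which carries serine and alanine, was named as one of the lower genes of smallest p. Its signal was 7.10, 7.38 and 7.18 at 22.7 mM, against 8.20, 8.10 and 7.95 at 5.5 mM, and the mean difference was −0.86 (SE 0.20, limma adjusted p = 0.195). Slc6a9, a glycine transporter gene, had a mean difference of −0.46 (SE 0.13). Both were lower in every array at 22.7 mM, and the pairs of Slc6a9 lay between −0.49 and −0.45.

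Aminoacyl-tRNA synthetases, which load amino acids on tRNAs and include ATF4 targets, depended on the 10 µM pair. Their median over 18 genes was 0.02, with −0.16, 0.27 and −0.13 by pair. Without the 10 µM pair it was −0.13 with 13 of 18 negative, against 3114 of all 7436 genes. Without that pair the groups were separated downward in 8 of 18, against 16% of all genes, and upward in 2, against 24.4%. Cars, Aars and Yars differed by −0.42, −0.27 and −0.25, and by −0.77, −0.45 and −0.33 without the 10 µM pair. Farsb and Hars differed by 0.44 and 0.52, and by 0.21 and 0.24 without it. Other probe sets above the filter gave −0.19 for Cars, 0.01 and 0.54 for Farsb and −0.04 for Hars. Cars was at 7.78, 8.35 and 7.94 at 22.7 mM and at 8.66, 8.06 and 8.60 at 5.5 mM, again with the 10 µM pair reversed.

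ER chaperones, which fold secreted proteins such as proinsulin, differed less than the integrated stress response genes. The median over 25 genes was −0.09, with −0.06 at 1 µM, 0.15 at 10 µM and −0.25 at 20 µM. Without the 10 µM pair it was −0.16 with 18 of 25 negative, against 3114 of all 7436 genes. Hspa5, the chaperone BiP, was at 12.01, 12.38 and 12.05 at 22.7 mM and at 12.24, 11.51 and 12.30 at 5.5 mM. The 5.5 mM array with 10 µM amylin was lowest, and the mean difference of 0.13 (SE 0.20) became −0.24 without that pair. A second probe set of Hspa5 gave 0.05. Dnajc3, an inhibitor of eIF2 kinases, was lower in every array (−0.50, and −0.27 without the 10 µM pair), but its other probe sets above the filter gave −0.23, 0.08 and −0.04. Fkbp2, a prolyl isomerase (−0.31), Pdia6, a disulfide isomerase (−0.27), and Dnajb11, a BiP partner (−0.23), were lower in every array at 22.7 mM. Pdia5 was higher in every array (0.22).

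Of 28 genes of ER-associated degradation and translocation 20 were higher, against 62.2% of all genes, with a median of 0.10. Without the 10 µM pair the median was −0.0023, with 14 positive and 14 negative. Of the 28 genes 24 belonged to the fifth with the highest signal, whose own medians are given above. The ER membrane protein gene Derl3 differed by −0.54, and Syvn1 and Edem3, which act in disposal of misfolded proteins, by 0.56 and 0.44, and by 0.19 and 0.26 without the 10 µM pair. Among 9 genes of the sensors and factors of the unfolded protein response, Atf6b (0.52), Eif2ak3 (0.27), which encodes the eIF2 kinase PERK, and Creb3l2 (0.27) were higher without overlap. Atf6b was at 8.19, 7.85 and 7.74 at 22.7 mM, against 7.41, 7.56 and 7.25 at 5.5 mM. The ER lists thus held members on both sides.

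**Figure D3:**
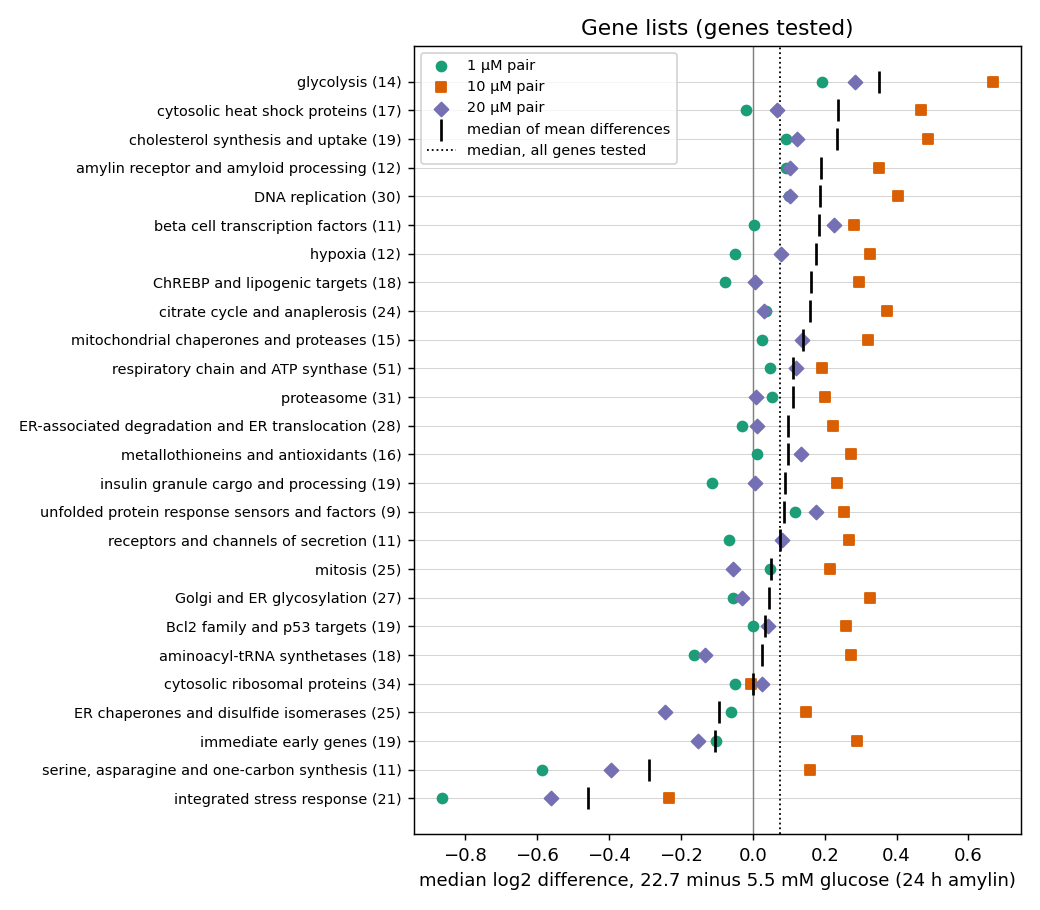
Median log2 difference between 22.7 and 5.5 mM glucose (horizontal axis) of each gene list with 5 or more tested genes (vertical axis, number tested in brackets), by dose pair and for the mean of the pairs (bar). The dotted line is the median of all genes tested, 0.07. In most lists the 10 µM pair lies furthest right, and the integrated stress response lies lowest with all 3 pairs left of 0.

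Glycolysis had the highest median of all lists with 5 or more tested genes. Of 14 members 12 were higher at 22.7 mM, against 62.2% of all genes, with a median of 0.35. An unadjusted p under 0.05 was reached by 6, all of them higher, and on that side by 1032 of all 7436 genes. The median was 0.19 at 1 µM, 0.67 at 10 µM and 0.29 at 20 µM, and 0.24 without the 10 µM pair. In 6 of 14 members all arrays at 22.7 mM lay above those at 5.5 mM, against 14.6% of all genes, and in none below. Of the 14 members 8 belonged to the fifth of genes with the highest signal, whose own medians are given above.

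Slc2a2, the gene of the glucose transporter GLUT2, was at 10.65, 10.78 and 10.86 at 22.7 mM, against 10.24, 9.82 and 10.59 at 5.5 mM. The groups did not overlap, the mean difference was 0.55 (SE 0.16, limma adjusted p = 0.195), and it was 0.34 without the 10 µM pair. Pfkm and Pfkl, subunits of phosphofructokinase, differed by 0.41 (SE 0.13) and 0.71 (SE 0.30), Pfkm without overlap and Pfkl with overlap. A second probe set of Pfkl gave 0.13. Pgam1, phosphoglycerate mutase, was at 10.10, 10.31 and 10.28 at 22.7 mM and at 9.93, 9.34 and 9.92 at 5.5 mM, a mean difference of 0.50 (SE 0.19) that was 0.26 without the 10 µM pair. Pkm, pyruvate kinase (0.44, and 0.18 without the 10 µM pair), and Ldha, lactate dehydrogenase A (0.74), were higher in every array at 22.7 mM. Slc2a2, Pfkm, Pfkl, Pgam1 and Pkm had their largest difference in the 10 µM pair.

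ChREBP targets moved singly. Txnip, the thioredoxin-binding protein gene, was at 8.42, 8.69 and 8.59 at 22.7 mM, against 7.65, 7.69 and 7.69 at 5.5 mM. The groups did not overlap, and the values at 5.5 mM had an SD of 0.023. Its mean difference was 0.89 (SE 0.42, 1.85-fold higher, limma adjusted p = 0.253) and 0.83 without the 10 µM pair, with the error taken from all glucose pairs of the fit, and a second probe set below the filter gave −0.02. The fatty acid elongase genes Elovl5 (0.74, SE 0.18) and Elovl6 (0.44, SE 0.12) were higher in every array, each with a second probe set on the same side (0.68 and 0.33). Arrdc4, a relative of Txnip, differed by 0.42 with overlap, Fasn, fatty acid synthase, by 0.38 (0.13 without the 10 µM pair), and Me1, malic enzyme, by −0.24. The list's median was 0.16 and became −0.07 without the 10 µM pair.

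Of 19 genes of cholesterol synthesis and uptake 16 were higher, against 62.2% of all genes. Their median was 0.24, and 0.14 without the 10 µM pair. Hmgcs1, which makes the precursor of mevalonate, was at 10.43, 10.36 and 10.41 at 22.7 mM and at 9.85, 8.77 and 9.70 at 5.5 mM (mean difference 0.96, SE 0.26). Fdft1, squalene synthase, was at 9.42, 9.28 and 9.21 at 22.7 mM and at 9.12, 8.40 and 8.33 at 5.5 mM (0.69, SE 0.18). In both genes the 22.7 mM arrays were close together and the 5.5 mM arrays spread. Weaker probe sets of Fdft1 gave 0.27, −0.43 and −0.48, those of Hmgcs1 0.84, 0.79 and 0.12. Srebf2, the factor that activates this path, was lower in every array by the probe set used (−0.35, SE 0.12), but a second one above the filter gave 0.23, higher in all 3 pairs, so that its direction depended on the probe set.

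Genes of beta cell identity were found in all 6 arrays. The 9 beta cell markers on the array all passed the filter, with a mean signal of 11.9 to 12.0 in the arrays at 22.7 mM and of 11.8, 11.5 and 12.0 at 5.5 mM with 1, 10 and 20 µM. Of the markers of other cells on the array, 3 of 7 for other islet cells, 3 of 9 for acinar cells, 4 of 8 for duct cells, 3 of 12 for fibroblasts and 2 of 13 for immune and endothelial cells passed it. Except for the duct markers, the mean signals of these lists differed by −0.49 to −0.61 in the 10 µM pair and by −0.20 to −0.28 in the 20 µM pair, higher at 5.5 mM in both. In the 1 µM pair they differed by −0.16 for other islet cells, 0.03 for acinar cells, 0.11 for fibroblasts and −0.05 for immune and endothelial cells, and so had no common sign. Most of these markers did not pass the filter on low signal. All genes in the fifth with the lowest signal had medians of −0.0034, −0.43 and −0.14 in the pairs of 1, 10 and 20 µM. In bulk RNA fewer cells of a type and less RNA per cell cannot be told apart, and the part of these signals in the differences was not tested. The part of signal level in the marker values was not tested either.

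The signals of insulin and amylin transcripts differed little. Ins2, an insulin gene, was at 14.54, 14.64 and 14.64 at 22.7 mM, against 14.66, 14.72 and 14.75 at 5.5 mM, a difference of −0.10 (SE 0.07). The groups did not overlap, but the gap was smaller than the spread within either of them. The Ins2 signal averaged 14.65 over all 20 arrays, at the top of the range of genes, and whether it was saturated was not tested. Iapp, which encodes mouse amylin, was at 13.44, 13.75 and 13.83 at 22.7 mM and at 13.68, 13.94 and 13.94 at 5.5 mM (−0.18, SE 0.09), with overlap, and its other probe sets gave −0.10, 0.03 and −0.08. Among transcription factors, Nkx6-1 was at 10.74, 10.52 and 10.50 at 22.7 mM and at 10.12, 8.96 and 10.27 at 5.5 mM. It did not overlap, and its mean difference of 0.80 (SE 0.23) was 0.42 without the 10 µM pair. Foxa2 (0.42), Nkx2-2 (0.49) and Pdx1 (0.26) were higher in all 3 pairs, Foxa2 alone of these without overlap (0.24 without the 10 µM pair), and Insm1 was lower in all 3 (−0.32). A second probe set of Pdx1 above the filter gave −0.15, with pairs of both signs.

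In the machinery of secretion, Fxyd6, a regulator of the sodium pump, was at 8.04, 8.31 and 7.99 at 22.7 mM, against 7.72, 6.82 and 6.75 at 5.5 mM. The groups did not overlap, and the difference of 1.01 (SE 0.27) was 0.77 without the 10 µM pair. Kcnj11, the pore subunit of the ATP-sensitive potassium channel, was lower in every array (−0.43), and its partner Abcc8 had a positive mean (0.54) that was 0.15 without the 10 µM pair. Pcsk1n, an inhibitor of prohormone processing (0.64), and Sytl4, a granule protein (0.47), overlapped, and were at 0.30 and 0.21 without the 10 µM pair. Syt7, a calcium sensor of exocytosis, was lower in every array (−0.36). Of the genes tied to amylin and amyloid, Psen2, a presenilin (0.38), and Clu, the secreted chaperone clusterin (0.42), were higher in every array at 22.7 mM, Clu by 0.40, 0.43 and 0.43 at the 3 doses.

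Of 30 DNA replication genes 29 had a positive difference, against 62.2% of all genes, with a median of 0.19. In 9 the groups did not overlap (against 14.6% of all genes). An unadjusted p under 0.05 was reached by 8, and on the higher side by 1032 of all 7436 genes. The list's median was 0.10, 0.41 and 0.10 by pair. Without the 10 µM pair it was 0.07 with 23 of 30 positive, against 58.1% of all genes. Of the 30 genes 17 belonged to the fifth with the highest signal, whose own medians are given above. Cdc6, which loads the replicative helicase, was at 8.36, 8.14 and 8.09 at 22.7 mM and at 7.89, 7.42 and 7.89 at 5.5 mM (0.46, SE 0.14). Mcm7, a helicase subunit, was higher in every array (0.45), and its other probe sets gave 0.39, 0.34 and 0.49. Rfc4, a clamp loader subunit (0.48), and Uhrf1, of DNA methylation maintenance (0.67), were higher in every array too, but were at 0.24 and 0.26 without the 10 µM pair, and second probe sets above the filter gave 0.02 and 0.07. Mitosis genes had a median of 0.05 over 25 genes and of −0.02 without the 10 µM pair. Of the 25 genes 5 were separated upward, against 14.6% of all genes. Limma's unadjusted p was under 0.05 for 2, both higher, and on that side for 1032 of all 7436 genes. Bub1, a kinase of the spindle checkpoint, had the smallest p of the list, at 8.97, 9.02 and 8.86 at 22.7 mM and at 8.47, 8.55 and 8.21 at 5.5 mM (0.54, SE 0.11), though a second probe set below the filter gave −0.24.

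Cytosolic heat shock genes had a median of 0.24 over 17 genes, and of 0.03 without the 10 µM pair. St13 and Stip1, which link HSP70 and HSP90, differed by 0.61 and 0.51 (0.35 and 0.32 without the 10 µM pair), and Bag3, a partner of HSP70, by 0.34, each without overlap. The metallothionein genes Mt2 and Mt1, whose proteins bind zinc and copper, were higher in every array at 22.7 mM. Mt2 was at 12.27, 12.17 and 12.29 at 22.7 mM, against 11.86, 11.68 and 11.69 at 5.5 mM (0.50, SE 0.16), and Mt1 differed by 0.39 (SE 0.14). Gpx1, glutathione peroxidase, was higher in every array too (0.31, with 0.30, 0.36 and 0.28 by pair). Sod1, superoxide dismutase, overlapped, because its signal was 12.57 in the 5.5 mM array with 20 µM amylin and 11.06 to 11.58 in the others.

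The remaining lists had medians between −0.11 and 0.19. Differences above 0 were found in 62.2% of all genes tested, and in 58.1% without the 10 µM pair. The respiratory chain and ATP synthase had 43 of 51 above 0, and 40 without the 10 µM pair, with a median of 0.11 in either case. By pair the median was 0.05, 0.19 and 0.12. Of the 51 genes 50 belonged to the fifth with the highest signal, whose own medians are given above. The citrate cycle had 18 of 24 above 0 (median 0.16), but 13 of 24 without that pair (0.04), and mitochondrial chaperones and proteases had 11 of 15 (0.14), and 10 of 15 without it (0.08). Ogdh, a citrate cycle dehydrogenase, differed by 0.71, and by 0.36 without the 10 µM pair, and Ndufa4, of the respiratory chain, by 0.37. Proteasome genes had a median of 0.11 over 31 genes, 0.04 without the 10 µM pair, and cytosolic ribosomal protein genes one of 0.00 over 34. The fifth with the highest signal also held 21 of 24 citrate cycle genes and 9 of 15 mitochondrial chaperone and protease genes. It held 30 of 31 proteasome genes and 29 of 34 ribosomal protein genes. Immediate early genes, which signals induce within minutes, had a median of −0.11 over 19 genes, and of −0.15 without that pair. Among them Id2 was lower by 0.65 and 0.64 in the pairs of 1 and 20 µM and by 0.08 in that of 10 µM, and Id1 and Id3 differed by −1.33 and −1.14 at 20 µM and by 0.30 and 0.29 at 10 µM. Id1 was at −0.83 and Id3 at −0.79 without the 10 µM pair. Sesn1 (0.53) was higher and Phlda3 (−0.41) lower in every array among the p53 targets, and in the Golgi St6gal1, a sialyltransferase, was higher (0.51).

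Outside the lists, the genes of smallest p among those with 1 sign in all pairs were as follows. Stmn3, a microtubule-destabilising protein, was at 11.71, 11.38 and 11.40 at 22.7 mM and at 11.10, 10.50 and 10.81 at 5.5 mM (0.69, SE 0.13), and its second probe set gave 0.75. Upk3a, a membrane protein known from the bladder, was at 9.26, 9.33 and 9.44 at 22.7 mM and at 8.47, 8.38 and 7.98 at 5.5 mM (1.07, SE 0.24, 2.10-fold higher). In both genes every array at 22.7 mM lay above those at 5.5 mM. Ckmt1, mitochondrial creatine kinase (0.87), Arid4b, a chromatin protein (0.83), Adk, adenosine kinase (0.77), Dusp6, a phosphatase of ERK kinases (0.60), and Wdr20 (0.50) completed the higher genes.

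Several of these genes rested on 1 of their probe sets. A second probe set of Adk above the filter gave 0.01 and one of Ckmt1 0.06, while weaker ones of Arid4b and Wdr20 were negative (−0.09 to −0.49 and −0.11 to −0.17). On the lower side, besides Ddit3, Trib3 and Slc1a4, stood Cyp2b10, a cytochrome P450 (−0.59), Uba7, the activating enzyme of ISG15 (−0.53, and −0.35 without the 10 µM pair), Rnf4, a ubiquitin ligase (−0.53), Cblc, another ligase (−0.49), and Brat1 (−0.43). Other probe sets gave −0.21 for Uba7, 0.35 for Rnf4 and 0.18 for Brat1, with signals above the filter. For Rnf4 and Brat1 the direction therefore depended on the probe set.

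**Figure D4:**
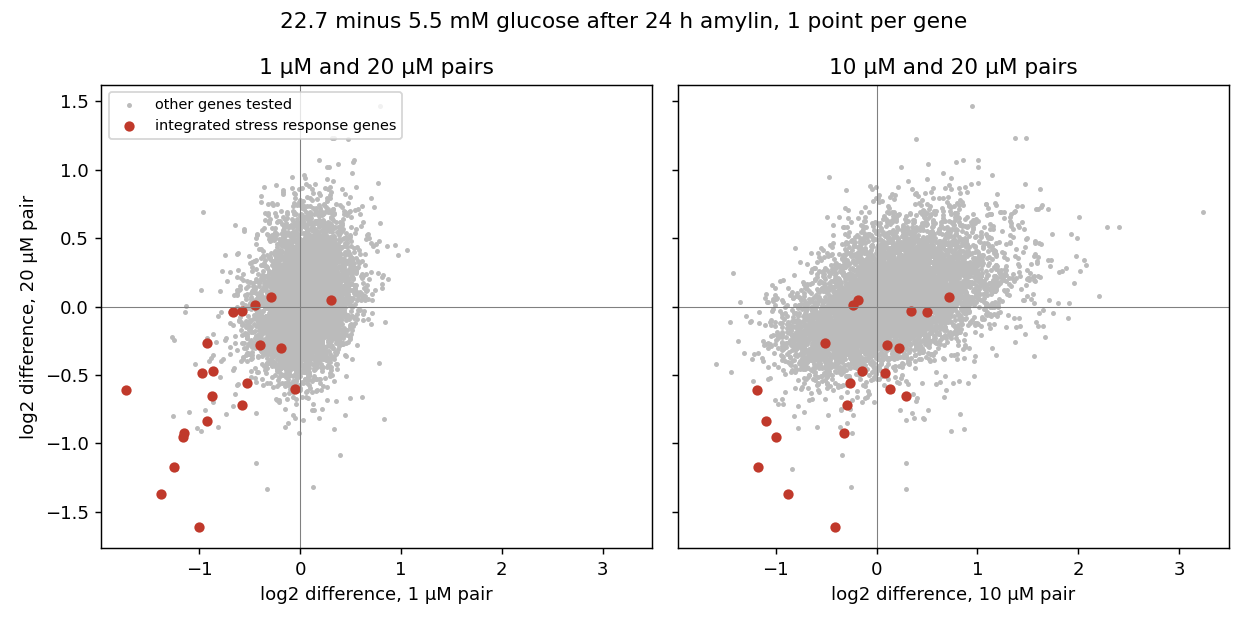
Log2 difference between 22.7 and 5.5 mM glucose of each of 7436 genes in the 20 µM pair (vertical axes) against the 1 µM pair (left) and the 10 µM pair (right, horizontal axes), with the 21 integrated stress response genes in red. On the left most red points lie below 0 on both axes, and the 10 µM differences spread more widely.

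Across all 7436 genes the pairs resembled each other weakly. Pearson's r was 0.25 between the 1 and 20 µM pairs, 0.16 between those of 1 and 10 µM and 0.45 between those of 10 and 20 µM. These correlations are across genes, which are not independent replicates, and the pairs share no array. The same sign in all 3 pairs was found for 3123 genes, 2048 positive and 1075 negative. The mean of the 1 and 20 µM pairs at 24 h had an r of 0.29 with the mean at 2 h. With the mean of the 10 and 20 µM pairs at 12 h its r was 0.51. The 1 µM pair at 12 h was not in that mean. Its 22.7 mM array, the other for which no scanner description was used, also stood apart. That array correlated with the other arrays at 0.972 on average, and its SD over genes was 1.63. The differences of the 1 µM pair at 12 h and of the 10 µM pair at 24 h had an r of −0.52.

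Set beside the other times, the integrated stress response list was lowest in the untreated pair. Its median difference was −0.89 in untreated cells (1 pair), −0.08 at 2 h, −0.37 at 12 h and −0.46 at 24 h (3 pairs each). At 2 h the pairs differed in sign (0.50, −0.50 and −0.37), and the 1 µM array at 22.7 mM had a list score of 0.35, against −0.20 at 5.5 mM, a list score being the median deviation of the members from their means over the 20 arrays. At 24 h the scores were −0.19, −0.31 and −0.34 at 22.7 mM for 1, 10 and 20 µM, against 0.56, −0.08 and 0.09 at 5.5 mM. The 5.5 mM scores spread more than those at 22.7 mM, and the groups did not overlap. Ddit3 differed by −1.07 in untreated cells, 0.09 at 2 h and −0.50 at 12 h, and Trib3 by −1.92, −0.29 and −0.60. Glycolysis had medians of −0.01 untreated, 0.09 at 2 h, 0.21 at 12 h and 0.35 at 24 h.

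**Figure D5:**
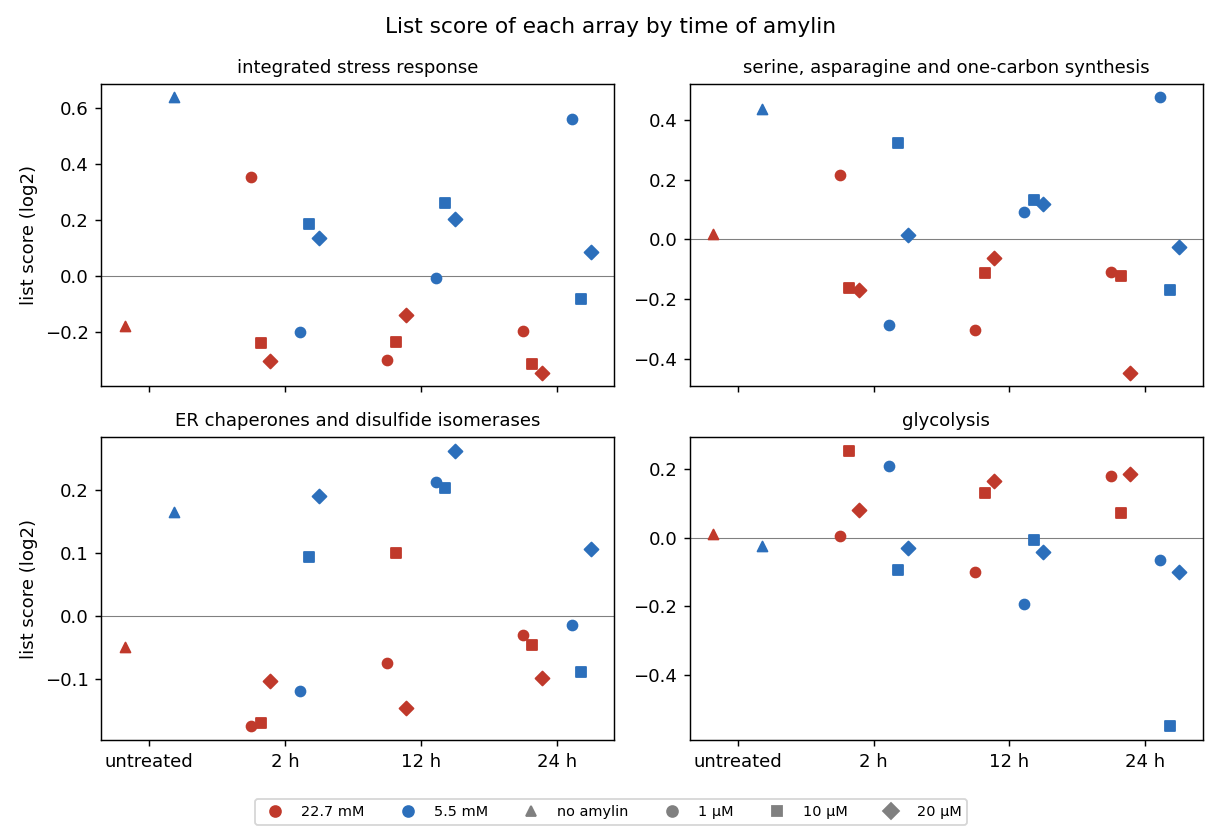
List score of each of the 20 arrays (vertical axes, log2 units; median deviation of the members from their means over all arrays) by time of amylin (horizontal axis), with 22.7 mM glucose (red) left of 5.5 mM (blue) and dose by symbol, for 4 gene lists. At 24 h the integrated stress response scores lie between −0.34 and −0.19 at 22.7 mM and between −0.08 and 0.56 at 5.5 mM. The glycolysis score of the 5.5 mM array with 10 µM amylin, −0.55, is the lowest of its panel.

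The glucose difference at 24 h was tested against the mean of the differences at 2 and 12 h as an interaction. The 24 h side included the 10 µM pair and the earlier side the 1 µM pair at 12 h, each with an array that stood apart. Limma called 0 of 7436 genes (0%), with a lowest adjusted p of 0.258, and 1286 genes had an unadjusted p under 0.05, 684 of them higher and 602 lower at 24 h. With array weights 20 were called (0.269%), and with both arrays lacking a scanner description left out 0 were called. The genes of smallest p were Ttyh1 (0.97 above the earlier times), Parl (0.89), Plk3 (0.84), Stt3a (0.73), Dusp6 (0.72) and Nap1l3 (0.67) on the higher side. Stt3a, a catalytic subunit of the oligosaccharyltransferase, differed by 0.29 at 24 h, against −0.43 at 2 h and −0.45 at 12 h. On the lower side stood Carm1 (−0.86), Uba7 (−0.77), Foxk1 (−0.72), Cyp2b10 (−0.67), Slc6a9 (−0.60) and Cd46 (−0.60). Their differences at 24 h moved by more than 1.5 times without the 10 µM pair for Ttyh1 (0.58, and 0.29 without it), Parl (0.26 and 0.09), Plk3 (0.52 and 0.25), Foxk1 (−0.39 and −0.23) and Cd46 (−0.29 and −0.15).

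Hspa5 had a change of 0.80 (SE 0.25, limma adjusted p = 0.258) between the earlier times and 24 h, with differences of −0.50 at 2 h, −0.84 at 12 h and 0.13 at 24 h. Its 24 h value was −0.24 without the 10 µM pair. For Ddit3 the same contrast was −0.75 (SE 0.26, limma adjusted p = 0.258). A p that misses the threshold does not show that the glucose difference was alike at all times.

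Within a scan day the integrated stress response median was −0.33 on day 3 (22.7 mM with 1 µM against 5.5 mM with 20 µM) and −0.75 on day 4 (22.7 mM with 10 and 20 µM against 5.5 mM with 1 µM). Among the arrays with the wash of 30 and 35 °C it was −0.69 (22.7 mM with all 3 doses against 5.5 mM with 1 µM). The glycolysis medians in the same order were 0.23, 0.14 and 0.14. These values mix doses, since no day held both arrays of a dose. The day 4 and wash values rest on the same 5.5 mM array, with 1 µM. Its integrated stress response score of 0.56 was the highest at 24 h. In a fit with the actin measure added as a covariate the medians were −0.37 for the integrated stress response and 0.34 for glycolysis. They were −0.46 and 0.35 in the fit without it. The actin measure was higher at 22.7 mM in every pair at 24 h, and that of Gapdh in the pairs of 1 and 20 µM only. The part of RNA quality in the differences was not tested.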

How the data were processed

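RNA of 20 conditions was hybridised to Affymetrix mouse arrays with 22690 probe sets. The authors deposited log2 values made with RMA in affy 1.12.2 under R 2.4.0, per the submitters' processing notes; whether all arrays shared 1 run is not given in the sources used here. Scanner descriptions of 18 arrays gave scan day and wash temperatures. For each of 12393 genes the probe set with the highest mean over all arrays was used, and the 40% of genes with the lowest mean (under 7.08) were left out.

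Limma 3.58.1 (lmFit, eBayes with trend, R 4.3.3) fitted a factor of 10 amylin conditions and a glucose term for untreated cells and for each time, with 6 residual degrees of freedom, and was tested on simulated data. An exact sign-flip test over 3 pairs could not go below 0.25. The comparison, gene lists and markers were chosen with earlier results of these data known. Genes named by rule were those passing, otherwise the 8 of smallest p in each direction with 1 sign in all pairs, the 6 of smallest p in each direction for 24 h against earlier times, up to 4 of smallest p per list, and Ins2, Iapp, Pdx1, Txnip, Hspa5 and Ddit3. Further list members (the remaining integrated stress response genes, and single genes of other lists such as Pkm, Psat1, Me1, Fasn and Sod1) were added after their values were seen. Alternatives covered the filter, scaling, probe set rule, moderation, model, array weights, RNA quality, scan day and arrays left out. Wash setting as a block and the additive fit without the arrays lacking scanner descriptions were added after seeing the data. Positions and promoters are RefSeq's (GRCm38.p6).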

Additional observations from a re-analysis of the deposited data

Results flagged for a closer look

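Some genes had a glucose difference at 24 h whose sign, in every pair, was opposite to that at 2 or at 12 h. Over all 7436 genes this held for 419 against 2 h and for 275 against 12 h. Each time was not tested on its own; limma's test of 24 h against the mean of 2 and 12 h called 0 genes.

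Opposite to both earlier times were Stt3a (0.29 at 24 h, −0.43 at 2 h, −0.45 at 12 h), Nap1l3 (0.36, −0.25, −0.36), Plk3 (0.52, −0.29, −0.36) and Cenpf (0.21, −0.27, −0.18), and, with the other sign, Uba7 (−0.53, 0.34, 0.16), Foxk1 (−0.39, 0.36, 0.28) and Cd46 (−0.29, 0.35, 0.26).

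Opposite to 2 h alone were Pdia5 (0.22 at 24 h, −0.26 at 2 h), Yme1l1 (0.42, −0.45), Psma1 (0.39, −0.28) and Cdc6 (0.46, −0.32). Lower at 24 h against 2 h were Cyp2b10 (−0.59, 0.14), Cblc (−0.49, 0.12), Yars (−0.25, 0.09) and Phlda3 (−0.41, 0.16). Opposite to 12 h alone were Dusp6 (0.60 at 24 h, −0.23 at 12 h), Ttyh1 (0.58, −0.50), Pgam1 (0.50, −0.15), Cck (0.15, −0.20) and Mogs (0.38, −0.19). Lower at 24 h against 12 h were Syt7 (−0.36, 0.42), Fosl2 (−0.25, 0.19) and Car9 (−0.32, 0.29).

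Of the gene lists, the mean over pairs of the list median had the opposite sign for metallothioneins and antioxidants (0.14 at 24 h, −0.10 at 2 h) and for the proteasome (0.088 at 24 h, −0.19 at 2 h, −0.15 at 12 h).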

How the results depend on the processing

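The count of called genes was 0 in 15 of the 17 alternatives and in each fit that left out 1 array at 24 h (0 to 0). The exceptions were 4 genes in the 6 arrays alone with a dose block, and 476 genes at 24 h and 20 for 24 h against earlier times with array weights. Of 2435 values of 146 named genes under the 17 alternatives 36 changed sign, and 49 passed the threshold, 48 of them with array weights. Separated genes numbered 1817 higher and 1190 lower without the 10 µM pair; lower ones numbered 1247 with no filter, 169 with the filter at 60% and 262 with arrays centred on their medians. Centring moved the median of all genes to 0.17 and leaving out the filter moved it to −0.05. The serine list median was −0.69 with wash setting as a block, an alternative chosen after seeing the data. The causes were not tested.

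Sign changes were as follows. With the 10 µM pair, both arrays without scanner descriptions, or either 10 µM array left out: Ctrb1 0.13, Krt7 −0.18, Krt18 −0.071 and Hspa5 −0.24. With array weights: Ctrb1 0.074, Krt7 −0.042, Epcam 0.047, Krt18 −0.18 and Hspa5 −0.14. With scan day as a block: Parl −0.014, Ctrb1 0.051, Krt7 −0.082, Krt18 −0.026 and Hspa5 −0.21. With wash as a block: Parl −0.025, Carm1 0.058, Gcg 0.042, Fosl2 0.040, Ctrb1 0.036, Krt7 −0.11, Krt8 −0.023 and Hspa5 −0.20. In the additive fit without both undescribed arrays: Ctrb1 0.055, Krt7 −0.12, Krt18 −0.096, Krt8 −0.033 and Hspa5 −0.16. With the actin covariate: Krt18 −0.067 and Krt8 −0.028. With other scaling or probe sets: Ctrb1 0.054 (centred), Krt8 −0.11 (quantile) and Cenpf −0.033 (mean of probe sets). Leaving out single arrays, Ctrb1 ranged from −0.14 to 0.13, Krt7 from −0.18 to 0.65, Krt18 from −0.071 to 0.34 and Hspa5 from −0.24 to 0.32.

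One array per condition, 6 residual degrees of freedom and the array at 5.5 mM with 10 µM amylin limit what these data can show.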
